A study of Mus musculus with 2 samples.

Results

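Genes that other work has named as targets of miR-142-3p were followed in Lin-Sca-1+c-Kit+ (LSK) bone marrow cells of mice with chronic myeloid leukaemia (CML), with and without miR-142. The 10 genes, of 32285 in the count tables, were given by name, with earlier results of these data known. They are Wasl, Cfl2, Twf1, Rock2 and Rac1, which act on the actin cytoskeleton, the integrin subunit Itgav, the receptors Tgfbr1 and Il6st, the adenylyl cyclase Adcy9, and the clock factor Arntl. The study asked how loss of miR-142 alters the leukemic stem cell compartment, and this comparison asks whether the RNA of these targets was higher where the microRNA was missing. Single cell RNA-seq (10x Genomics 3′ kit, in which each counted molecule carries a unique molecular identifier, UMI) was run on 1 library per group. Both groups carried the SCLtTA and BCR-ABL transgenes on a B6 background, so that BCR-ABL was expressed under the SCL promoter after tetracycline withdrawal, and both came from mice 8 to 10 weeks old, 2 weeks after that withdrawal. The miR-142 WT CML group (WT below) kept both copies of miR-142, and the miR-142 KO CML group (KO below) had none. BCR-ABL expression in this model follows cells in which the SCL promoter is active, the number of mice per library is not given in the sources used here, and no library without BCR-ABL was examined.

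A microRNA guides a silencing complex to messenger RNAs that pair with its seed, bases 2 to 8 from its 5′ end, usually in the 3′ untranslated region (3′UTR), and the paired messenger is translated less and often decays faster. miR-142 is abundant in blood cells. Actin filaments, which blood cells remodel to move, adhere and shed platelets, are nucleated through N-WASP, severed by cofilins, and blocked at their ends and held as monomers by twinfilins, while small GTPases and their kinases control where this happens.

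The seed matches show what the 3p arm of the microRNA could pair with in these messengers. The mature miR-142a-3p (RefSeq, GRCm38.p6, chr11:87756903-87756925, plus strand) is printed with its seed in capitals, and the 30-base 3′UTR windows (GENCODE M21, GRCm38, written as the messenger reads) with the bases that match the seed, and an A after it where there is one, in capitals. Windows are shown for the 5 targets whose level was higher in KO by 25% or more and for 3 of those with a like match that were not. Arntl, which had 2 8-base matches and was not higher either, is left out.
miR-142a-3p: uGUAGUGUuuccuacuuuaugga
Wasl: tatttttaaggtgaaatactaaACACTACt
Cfl2 first match: tctttggtttcccgatgagtgtACACTACt
Cfl2 second match: tgtttaccatatgagtcttgaaACACTACA
Twf1: caacgatgctctgaagcctagtACACTACA
Itgav: gcacttagaacaggtacacattACACTACA
Tgfbr1: gagatgcttaaatttcatcctaACACTACA
Rock2: tcccagactgcgtcataaagtcACACTACA
Rac1: aatatgaagtagagattactttACACTACA
Il6st: aggggcagagagaccagaattcACACTACA

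These windows lie at chr6:24616236-24616265 (minus strand) for Wasl, chr12:54860463-54860492 and chr12:54860423-54860452 (minus) for Cfl2, chr15:94578191-94578220 (minus) for Twf1, and chr2:83803757-83803786 (plus) for Itgav. Those of Tgfbr1, Rock2 and Il6st lie at chr4:47414852-47414881, chr12:16984884-16984913 and chr13:112506241-112506270 (all plus), and that of Rac1 at chr5:143506246-143506275 (minus). The heptamer ACACTAC, the complement of seed bases 2 to 8, was searched on the messenger strand of the longest annotated 3′UTR of each gene. It was present in 9 of the 10 targets, and in 8 of them at least 1 match was followed by A (an 8-base match). The genes were named as targets in part for such matches, so this is a description. Among 7334 genes with an annotated 3′UTR and a mean level of at least 10 UMIs per 1000000 (CPM) over both libraries, 7.19% held the heptamer and 3.03% the 8-base match. These shares are not matched for length or level. The median longest 3′UTR of these genes was 1260 bases. Those of Arntl (507) and Adcy9 (369) were shorter, and those of the other targets ran from 1869 (Twf1) to 5641 bases (Il6st). Itgav, Adcy9 and Arntl lay below that level. Cfl2 had its heptamers 40 bases apart, Wasl had 1 heptamer and 3 further matches to bases 2 to 7 followed by A, and Arntl had 2 8-base matches, 1 of them directly after the stop codon. Adcy9, whose longest annotated 3′UTR was 369 bases, had no match of 6 bases or more in this window. No other mouse miRNA in the RefSeq table used shared the miR-142a-3p seed. The heptamer of the other arm, miR-142a-5p (ACTTTAT), was in 3 targets: Rock2 (1), Rac1 (1) and Il6st (2). Of the 7334 genes, 16.3% held it.

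**Figure D1:**
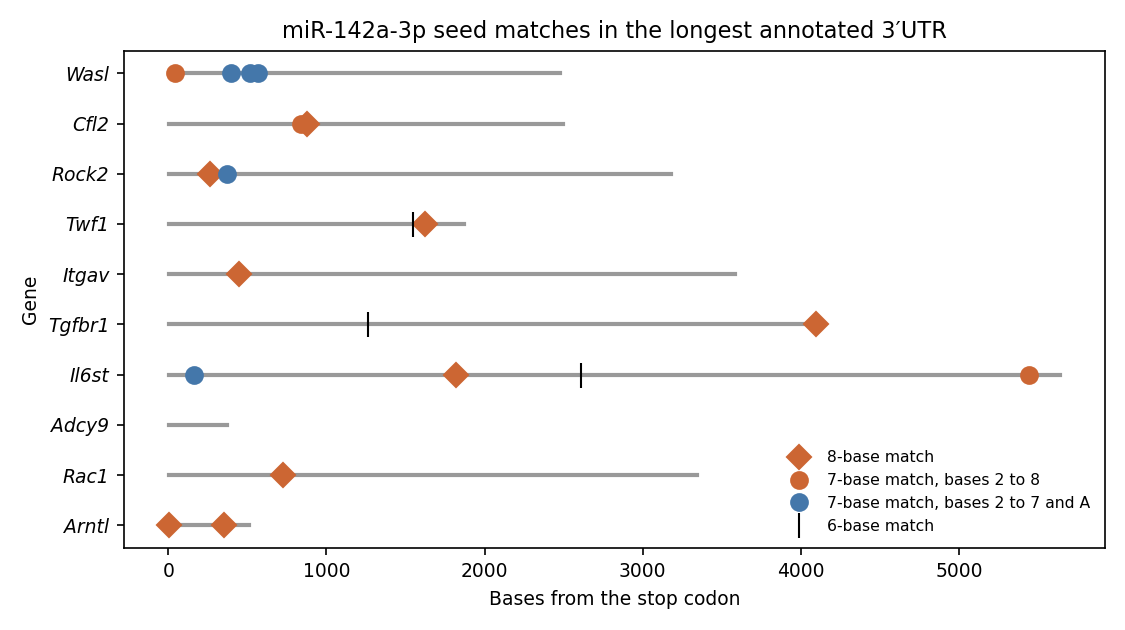
Positions of miR-142a-3p seed matches along the longest annotated 3′UTR of each target, in bases from the stop codon. Grey bars span the 3′UTR; diamonds are 8-base matches, orange circles 7-base matches to seed bases 2 to 8, blue circles 7-base matches to bases 2 to 7 followed by A, and ticks 6-base matches. Adcy9 has none.

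Cells were barcodes with at least 8000 UMIs and under 10% mitochondrial UMIs, which gave 5363 WT and 5458 KO cells with a median of 19443 and 24181.5 UMIs. The cells held 138183896 UMIs in WT and 158438757 in KO, and 4 cell barcodes occurred in both libraries. Mir142hg (ENSMUSG00000084796, chr11:87755577-87757270), the host transcript of the deleted microRNA, had 1260 UMIs in WT and 20 in KO (9.12 and 0.13 CPM), which fits the labels. The LSK marker Kit was at 86.4 CPM (WT) against 68.3 CPM (KO), Ly6a (Sca-1) at 96.8 and 153 CPM, and Cd34 at 255 and 199 CPM. The libraries differed in the cells they held. Cells in a gate of neutrophil granule genes made up 4.51% of WT and 31.6% of KO, those in a gate of haematopoietic stem cell (HSC) genes 31.0% and 6.65%, and cells with plasma cell genes 0.671% and 0%. The summed level of 6 late neutrophil markers was 73.6 CPM in WT and 509 CPM in KO, and those of the 5 B cell, 5 T cell and 5 macrophage markers were under 4 CPM in each library, with Pax5 and Cd3e at 0 in WT. With 1 library per group there is no replicate check and no test. Intervals are 95% exact intervals that cover counting error only, and differences between the mice or preparations cannot be told apart from the effect of the deletion.

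Over all cells, 5 of the 10 targets (Cfl2, Wasl, Twf1, Tgfbr1 and Itgav) were at least 25% higher in KO, 2 (Il6st and Adcy9) were at least 20% lower, the same ratio turned over, and 3 (Rock2, Rac1 and Arntl) were in between. All 10 were above 1 CPM, where 8.9% of 11652 genes were that much higher and 28% that much lower. At a floor of 10 CPM, which 7 of the targets passed (all but Itgav, Adcy9 and Arntl), these shares were 7.6% and 18.8% of 7483 genes. The median log2 ratio, KO over WT, was 0.33 over the 10 targets and 0.65 over the 7, beside -0.12 and -0.08 over all genes at the same floors. Scaling by size factors in place of total UMIs adds 0.08 to every log2 ratio and changes none of these calls. With both libraries weighted to the same shares of the gates, the same 5 targets stayed above the limit and 0 of the 10 were lower by 20% or more. Adcy9 fell just short of the lower limit (log2 ratio -0.313). At the 10 CPM floor 5.95% of genes were that much higher and 6.84% that much lower under this weighting. Under size factors these shares were 11.8% and 12.5%.

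**Figure D2:**
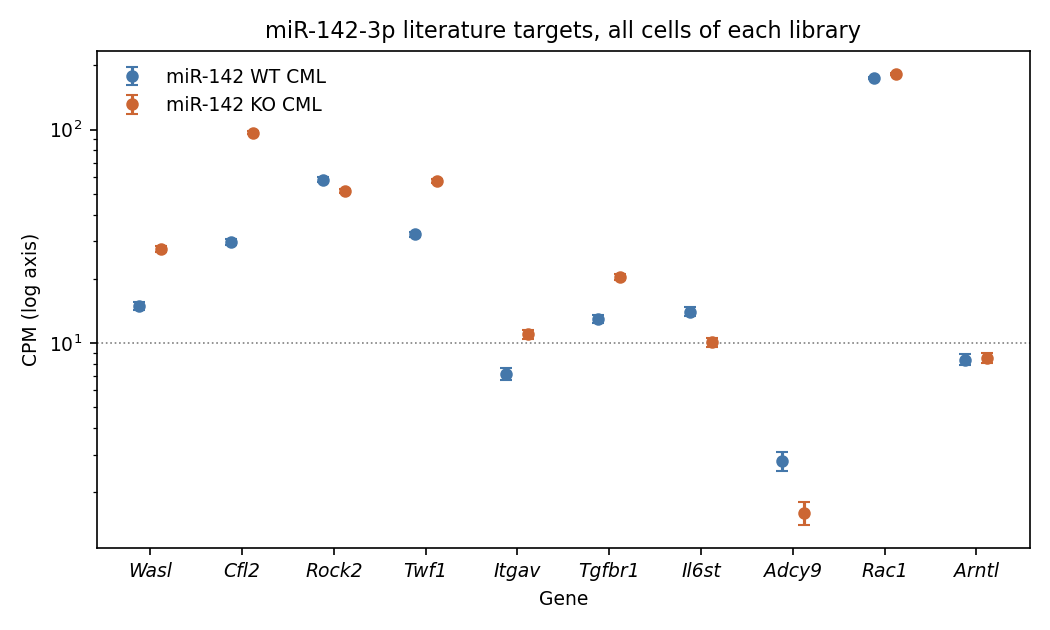
Level of each target over all cells of each library, in CPM on a log axis, WT in blue and KO in orange. Bars are 95% exact Poisson intervals, often smaller than the point, and the dotted line marks 10 CPM; Cfl2, Wasl and Twf1 stand clearly higher in KO, and Rac1 and Arntl lie side by side.

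Cfl2 (ENSMUSG00000062929, chr12:54858809-54862877) encodes cofilin-2, which binds and severs actin filaments. It had 4123 UMIs in WT and 15288 in KO, 29.8 CPM (95% interval 28.9 to 30.8) against 96.5 CPM (94.97 to 98.03). The KO level was 3.23-fold higher (log2 ratio 1.69, 1.64 to 1.74), the only target past 2-fold, where 1.02% of genes at the 10 CPM floor lay higher, and it ranked 18 of 7483 genes by this ratio. After each cell was thinned to 8000 UMIs, 22.8% of WT and 54.4% of KO cells had a Cfl2 UMI, and 3.51% and 18.8% had 2 or more. The lowest gate had 12.3% in WT and 50.9% in KO, so even the lowest KO gate lay above the highest WT gate, at 29.6%. No cell group known to lack Cfl2 was available to set a background. In barcodes under 100 UMIs, which hold free RNA, Cfl2 was at 25.2 CPM (WT) against 90.4 CPM (KO). The part of free RNA in these shares was not tested.

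The Cfl2 level moved with the cell state in WT and hardly in KO. Across 8 marker gates with at least 100 cells in each library, it ran from 19.2 CPM (monocyte gate) to 43.3 CPM (HSC gate) in WT, a 2.26-fold range, and from 89.5 to 114 CPM in KO, a 1.27-fold range. The log2 ratio accordingly ran from 1.33 (ungated non-cycling cells) to 2.27 (mast or basophil gate), and its interval lay above 0 in all 8 gates. Split by depth, a choice made after seeing the data, the WT level was 41.1 CPM in cells of 8000 to 16000 UMIs, 34.5 CPM in those of 16000 to 32000 and 22.9 CPM in those of 32000 or more, and the KO level 101, 94.7 and 96.5 CPM. The log2 ratio was 1.29, 1.46 and 2.08 in these bands.

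Wasl (ENSMUSG00000029684, chr6:24613805-24665009) encodes N-WASP, which activates the Arp2/3 complex to nucleate branched actin. Its counts were 2053 UMIs in WT and 4377 in KO, 14.9 CPM (14.2 to 15.5) against 27.6 CPM (26.8 to 28.5), a 1.86-fold higher level in KO (log2 ratio 0.89, 0.82 to 0.97). Thinned to 8000 UMIs, 13.1% of WT and 21.4% of KO cells had a UMI. Its lowest share by gate was 7.48% in WT and 17.4% in KO. Like Cfl2, it was lowest in the WT monocyte gate (9.20 CPM) and lay higher in the WT HSC gate (23.0 CPM), beside 25.4 and 38.6 CPM in the same KO gates. The log2 ratio ran from 0.35 in ungated non-cycling cells, where the interval (-0.24 to 0.94) spanned 0, to 1.496 in the mast or basophil gate. By depth band it was 0.72, 0.72 and 1.23 from the shallowest to the deepest cells.

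Twf1 (ENSMUSG00000022451, chr15:94577951-94589889) encodes twinfilin-1, which binds actin monomers and caps filament ends. It had 4456 UMIs in WT and 9132 in KO, 32.2 CPM (31.3 to 33.2) against 57.6 CPM (56.5 to 58.8), a log2 ratio of 0.84 (0.79 to 0.89). Its ratio varied least among the higher targets, from 0.62 in the neutrophil granule gate to 0.89 in the monocyte gate, with the interval above 0 in all 8 gates. Its share of thinned cells with a UMI was 21.5% in WT and 35.3% in KO, and 16.8% and 31.4% in the lowest gates. For Twf1, Cfl2 and Wasl the lowest KO gate lay above the highest WT gate (46.3 above 37.8 CPM, 89.5 above 43.3 CPM and 24.1 above 23.5 CPM, the last a gap smaller than the intervals). That held for 3 of 10 targets and for 0.412% of genes at the 1 CPM floor (0.521% at 10 CPM).

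Rock2 (ENSMUSG00000020580, chr12:16894895-16987823), a kinase that raises actomyosin contraction, and Rac1 (ENSMUSG00000001847, chr5:143503634-143528036), the small GTPase of membrane ruffles, have the same 8-base match as Twf1. Rock2 was at 58.3 CPM (WT) against 51.6 CPM (KO) (8063 and 8176 UMIs, log2 ratio -0.18, -0.22 to -0.13). Rac1 was at 175 CPM (WT) against 181 CPM (KO) (24127 and 28728 UMIs, log2 ratio 0.05, 0.03 to 0.08). Both lay between these limits over all cells, and gates differed in direction. Rock2 was higher in KO in the mast or basophil gate (34.6 to 60.8 CPM, log2 ratio 0.81, 0.55 to 1.08), lower in the megakaryocyte gate (89.0 to 67.6 CPM, -0.40, -0.61 to -0.19), and between -0.10 and 0.08 in the other 6. Rac1 was lower in KO in the mast or basophil gate (295 to 213 CPM, log2 ratio -0.47, -0.57 to -0.36), and in the other 7 gates its log2 ratio lay between -0.07 and 0.17. Of the thinned cells, 37.7% (WT) and 34.1% (KO) had a Rock2 UMI, and 73.1% and 74.9% a Rac1 UMI.

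The mast or basophil gate differed in marker levels between the libraries, and the part of this in the values read there was not tested. The basophil protease Mcpt8 was at 4270 CPM in its 214 WT cells and 1749 CPM in its 331 KO cells, and the mast cell protease Cma1 at 13011 and 12171 CPM. Prss34 (4471 and 2801 CPM) and Hdc (1169 and 702 CPM) were also lower in KO. Fcer1a (2101 and 2507 CPM) and Ms4a2 (485 and 653 CPM) were higher, and Cpa3 (12840 and 13853 CPM) and Gzmb (1299 and 1321 CPM) differed less. Its cells were therefore split by whether Cma1 UMIs outnumbered those of Mcpt8 and Prss34, a choice made after seeing the data. The Rac1 log2 ratio was -0.42 in the Cma1-high cells (137 WT, 199 KO) and -0.53 in the rest (77 WT, 132 KO). The Rock2 ratio was 1.12 (0.76 to 1.48) in the Cma1-high cells and 0.35 (-0.06 to 0.77) in the rest.

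Tgfbr1 (ENSMUSG00000007613, chr4:47353222-47414931), the type I receptor kinase for TGF-beta, had 1792 UMIs in WT and 3227 in KO, 12.97 CPM (12.4 to 13.6) against 20.4 CPM (19.7 to 21.1), a log2 ratio of 0.65 (0.57 to 0.74). It was the target most tied to 1 cell group. In the mast or basophil gate it was at 52.2 CPM (WT) against 142.1 CPM (KO) (log2 ratio 1.45, 1.24 to 1.65), and in the other 7 gates it ran from 7.47 to 17.0 CPM in WT and from 12.3 to 19.7 CPM in KO. The HSC gate, next in order in WT, had a log2 ratio of 0.21 whose interval (-0.12 to 0.53) spanned 0. Within the mast or basophil gate the Cma1-high cells went from 87.8 to 224 CPM and the rest from 9.83 to 37.1 CPM, log2 ratios of 1.35 (1.14 to 1.57) and 1.92 (1.23 to 2.66). That gate held 3.99% of WT and 6.06% of KO cells. Without it the log2 ratio over all cells was 0.35, still past the 25% limit, and in cells outside the S and G2/M gates, with that gate included, it was 1.503. Thinned to 8000 UMIs, 9.83% of WT and 14.6% of KO cells had a UMI, 5.13% and 9.37% in the lowest gates.

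Itgav (ENSMUSG00000027087, chr2:83724397-83806916), the alpha V integrin subunit that pairs with several beta subunits to bind matrix proteins, was low. It had 990 UMIs in WT and 1737 in KO, 7.16 CPM (6.72 to 7.62) against 11.0 CPM (10.5 to 11.5), a log2 ratio of 0.61 (0.50 to 0.73). It was higher in KO in 8 of 8 gates, with the interval above 0 in 7, from 0.46 in ungated cycling cells to 1.32 in the mast or basophil gate (11.8 to 29.3 CPM). Its order of levels was alike in both libraries at the top, with the mast or basophil gate first and the HSC gate (11.7 CPM in WT, 16.5 CPM in KO) second. The first and second did not differ beyond their intervals in WT and did in KO. Wasl, Cfl2, Twf1, Tgfbr1 and Itgav were thus the 5 of 10 targets higher in KO in every one of the 8 gates, beside 8.46% of genes at the 1 CPM floor (10.2% at 10 CPM).

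**Figure D3:**
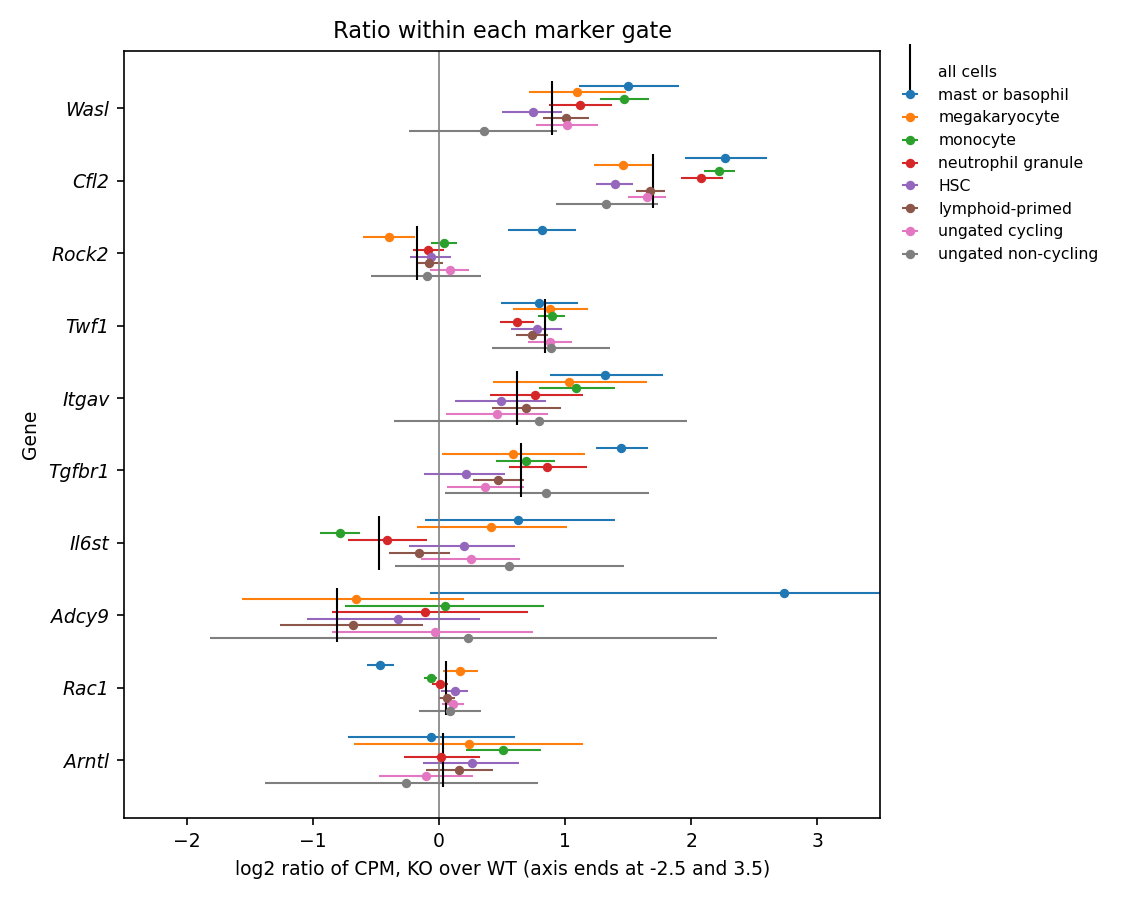
Log2 ratio of CPM, KO over WT, for each target within the 8 marker gates (coloured points, bars are 95% exact intervals for counting error) and over all cells (black ticks). Cfl2 and Twf1 have every interval above 0, Rock2 and Rac1 have the mast or basophil gate apart from the others on opposite sides, and the Adcy9 interval of that gate runs past the axis.

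Il6st (ENSMUSG00000021756, chr13:112464070-112510086) encodes gp130, the signalling chain shared by the IL-6 family of cytokine receptors. Over all cells it had 1940 UMIs in WT and 1599 in KO, 14.0 CPM (13.4 to 14.7) against 10.1 CPM (9.60 to 10.6), a log2 ratio of -0.48 (-0.57 to -0.38). This lower level did not hold in all cells. In WT the monocyte gate stood apart at 28.3 CPM, with the other gates at 4.92 to 11.9 CPM, and in KO the monocyte gate was at 16.4 CPM (log2 ratio -0.79, -0.95 to -0.63). The neutrophil granule gate was also lower in KO (8.15 to 6.13 CPM, -0.41, -0.72 to -0.09), the lymphoid-primed gate had -0.16, and the other 5 gates had ratios from 0.19 to 0.62 with intervals that spanned 0. With both libraries weighted to the same shares of the gates the ratio was -0.15, within the limits, and outside the S and G2/M gates it turned to 0.36. In cells of 8000 to 16000 and 16000 to 32000 UMIs it was 0.16 (-0.10 to 0.43) and 0.10 (-0.10 to 0.29), and in those of 32000 or more -0.91 (-1.04 to -0.79). The monocyte gate itself differed between the libraries, with a median of 0.70 late neutrophil marker UMIs per 10000 in WT and 4.63 in KO, and the part of this in the Il6st ratio was not tested. Thinned to 8000 UMIs, 8.50% of WT and 7.53% of KO cells had an Il6st UMI, 2.34% and 3.93% in the lowest gates.

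Adcy9 (ENSMUSG00000005580, chr16:4287529-4420498), an adenylyl cyclase that makes cyclic AMP, was the rarest target and the 1 with no seed match here. It had 386 UMIs in WT and 252 in KO, 2.79 CPM (2.52 to 3.09) against 1.59 CPM (1.40 to 1.80), a log2 ratio of -0.81 (-1.05 to -0.58). Its levels followed the gates: it was highest in the megakaryocyte and HSC gates in both libraries (6.24 and 5.49 CPM in WT, 3.95 and 4.37 CPM in KO) and at or below 1.37 CPM in the monocyte and neutrophil granule gates. Weighting both libraries to the same shares of the gates brought the ratio to -0.31, within the limits. Within gates the interval lay below 0 in the lymphoid-primed gate (-0.69, -1.26 to -0.13) and spanned 0 in the other 7. With 1 UMI in WT and 10 in KO, the mast or basophil gate gives no usable ratio.

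Arntl (ENSMUSG00000055116, chr7:113207465-113314126) encodes BMAL1, which drives the circadian clock with CLOCK. Its 1156 UMIs in WT and 1355 in KO gave 8.37 CPM (7.89 to 8.86) and 8.55 CPM (8.10 to 9.02), a log2 ratio of 0.03 (-0.08 to 0.15). By gate it ran from 4.10 to 11.8 CPM in WT and from 4.83 to 14.1 CPM in KO, lowest in the megakaryocyte gate and highest in the HSC gate in both. The monocyte gate was the 1 with an interval above 0 (5.17 to 7.34 CPM, log2 ratio 0.51, 0.21 to 0.80), and none lay below 0. An Arntl UMI was found in 7.33% of WT and 6.76% of KO cells after thinning.

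**Figure D4:**
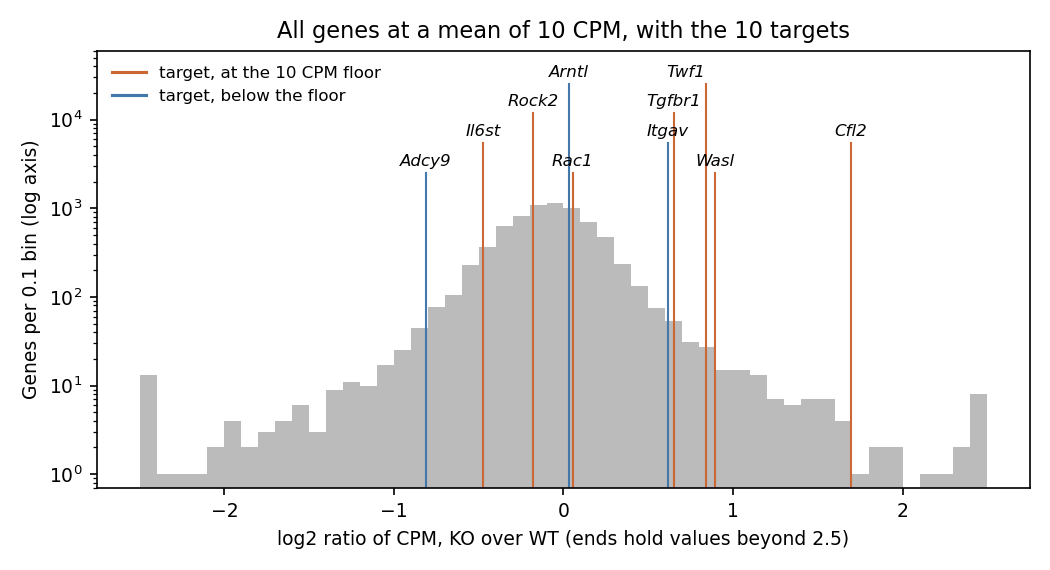
Distribution of the log2 ratio, KO over WT, of the 7483 genes at a mean of 10 CPM or more (grey, genes per bin on a log axis) with a line for each target, orange at the floor and blue below it. Cfl2 lies in the far right tail, Wasl and Twf1 rank 94 and 111 from the top, and Rac1, Arntl and Rock2 lie near the centre.

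Each target was set beside 1 chosen relative. Was, the blood cell form of N-WASP, was at 52.1 CPM (WT) against 38.2 CPM (KO) (log2 ratio -0.45), and Acvr1b, an activin type I receptor, at 11.4 and 8.15 CPM (-0.48). Cfl1 (0.11), Twf2 (0.15), Itga4 (-0.15) and Rac2 (0.01) lay between the limits. Over all cells, 0 of the 10 relatives were higher in KO by 25% or more, 6 were lower by 20% or more (Was, Rock1, Acvr1b, Lifr, Adcy7 and Arntl2, the last with 13 and 5 UMIs) and 4 were in between. At the 10 CPM floor, which 7 of the relatives passed, 7.6% of all genes were that much higher and 18.8% that much lower. Of the lower relatives, Acvr1b, Lifr and Arntl2 lay below that floor. At 1 CPM, which Lifr and Arntl2 did not reach, these shares were 8.9% and 28%. Scaled by size factors, 3 were lower (Was, Acvr1b and Arntl2) and 0 higher, beside 12.5% and 11.8% of genes at that floor. With both libraries weighted to the same shares of the gates, 1 was lower (Arntl2) and 1 higher (Lifr, with 143 and 130 UMIs in all), beside 6.84% and 5.95%. For the 5 higher targets the chosen relative had a log2 ratio from -0.48 to 0.15 over all cells. At the same gate shares the range was -0.31 to 0.14. Other relatives were not all in these ranges. Dstn (destrin), a further cofilin relative, had 1.43 over all cells and 0.80 at the same gate shares. Among other integrin alpha subunits, Itga2b, a marker of the megakaryocyte gate, had 0.21 and 0.78, and Itgal -0.22 and -0.06. Within gates, Was was lower in KO in 7 of 8, Itga4 was higher in 7 of 8 (-0.43 to 0.23), and Acvr1b lay between -0.18 and 0.48. In the lymphoid-primed gate Acvr1b (0.48, 0.25 to 0.71) was about as much higher in KO as Tgfbr1 (0.47). The heptamer ACACTAC was found in the 3′UTR of 1 relative, Itga4. Of the 9 targets with the heptamer, 5 were higher by this rule, 1 lower and 3 in between. Of the 527 genes at the 10 CPM floor with it, 13.9% were higher and 16.3% lower. The sets are not alike in level, since Itgav (higher) and Arntl (in between) lay below that floor. Of the 5798 genes with no 6-base match, 7.35% were higher and 17.9% lower.

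**Figure D5:**
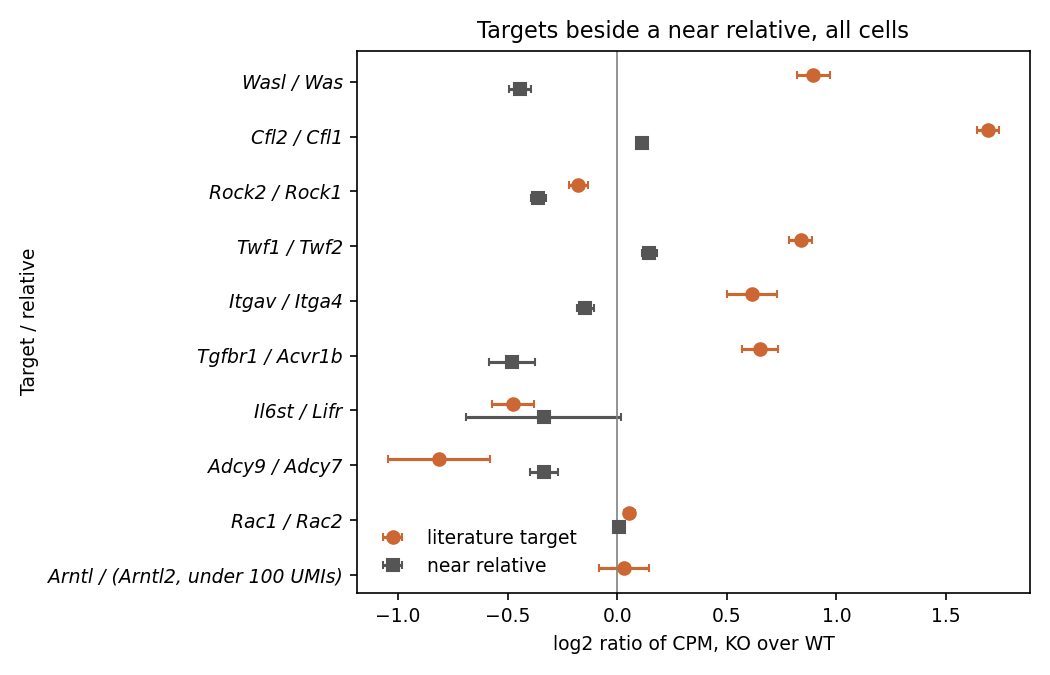
Log2 ratio of CPM over all cells, KO over WT, of each target (orange circles) beside its near relative (grey squares), with 95% exact intervals for counting error. For Wasl, Cfl2, Twf1, Itgav and Tgfbr1 the target lies to the right of its relative with no overlap; Arntl2 has too few UMIs to plot.

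The other genes of the same pathways are set beside all genes at the same floor. Over 9 lists, 110 of 171 genes passed 10 CPM, of which 5 (4.55%) were higher in KO by 25% or more and 28 (25.5%) lower by 20% or more, beside 7.6% and 18.8% of all genes at this floor. Scaled by size factors, 5 were higher and 19 (17.3%) lower, beside 11.8% and 12.5% of all genes. With both libraries weighted to the same shares of the gates, 9 (8.18%) were higher and 7 (6.36%) lower, beside 5.95% and 6.84%. Fewer genes were thus lower at the same gate shares, in these lists as over all genes, and the cause was not tested. Counts and values by list are over all cells unless the same gate shares are named. The WASP, WAVE and Arp2/3 list had 0 of 20 higher and 5 lower, such as Abi2 (14.3 to 9.73 CPM, log2 ratio -0.55), a WAVE complex subunit. The Rac list had 0 of 13 higher and 5 lower, among them the Rac exchange factors Dock2 (-0.55) and Prex1 (-0.55).

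Actin depolymerising and capping genes had 2 of 13 higher and 1 lower. Dstn, which encodes the cofilin relative destrin, went from 75.8 to 205 CPM (log2 ratio 1.43), and Tmsb4x, the monomer-binding thymosin beta 4, from 2603 to 3486 CPM (0.42). Ssh2, a phosphatase that activates cofilin, was lower (26.2 to 17.0 CPM, -0.63). Of the integrin list, 1 of 10 was higher (Itgb7, 23.6 to 32.2 CPM, 0.45) and 1 lower (Itgb2, 12.7 to 9.97 CPM, -0.34).

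The TGF-beta and activin list had 0 of 11 higher and 4 lower, with the co-receptor Eng at 30.1 CPM (WT) against 14.3 CPM (KO) (-1.08) and the inhibitor Smad7 at 32.4 and 23.2 CPM (-0.48). The gp130 list had 0 of 11 higher and 4 lower, among them the kinase Jak2 (14.4 to 10.7 CPM, -0.43). The cyclic AMP list had 1 of 13 higher and 5 lower, and its extremes were cyclic AMP phosphodiesterases: Pde4d was higher (34.0 to 61.3 CPM, 0.85) and Pde4b (25.8 to 14.6 CPM, -0.82) and Pde7a (-0.66) lower. The clock list had 1 of 7 higher, Per1 (9.57 to 15.1 CPM, 0.65), and 0 lower. At the same gate shares Dstn (0.80), Itgb7 (0.63) and Per1 (0.92) stayed above the limit and Dock2 (-0.36), Itgb2 (-0.46), Eng (-0.36) and Pde7a (-0.33) below theirs. The others named lay between the limits, among them Ssh2 (-0.11), Pde4b (-0.11), Pde4d (0.22) and Smad7, which turned to 0.11.

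The genes whose pattern over the 16 library-by-gate levels was most like that of each target at the floor were named by Pearson r of log2(CPM + 1), a description, since these levels share libraries. For Cfl2 they were Rab12 (r 0.99), a Rab GTPase, and Scoc (0.96), both higher in KO by less than Cfl2 (log2 ratios 1.11 and 1.10 against 1.69). For Wasl they were the tetraspanin Cd151 (0.96) and Tmem59 (0.96), with log2 ratios of 1.03 and 0.73. For Twf1 they were Tspoap1 (0.95), the neighbour of Mir142hg on chromosome 11, and Tsen34 (0.93), with log2 ratios of 6.40 and 1.53 against 0.84 for Twf1, so that a high r does not mean a like size of difference. For Tgfbr1 they were the lysosomal protease Ctsd (0.94) and Grn (0.94), and for Il6st Fgd2 (0.86) and Pip4p1 (0.80). For Rock2 (Gnl3l and Ppm1d) r was 0.92 for each, as for Rac1 (Serf2 and Morrbid).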

How the data were processed

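The 2 deposited matrices hold raw UMI counts per gene and barcode for all barcodes, made by the authors with Cell Ranger 6.1.2 on mm10, per the labels' processing notes (the file header names Cell Ranger 4). The study kept barcodes over 300 UMIs with under 10% mitochondrial RNA. Here cells had at least 8000 UMIs and under 10% mitochondrial UMIs (24 WT and 4 KO barcodes fell to the latter). Counts were summed over cells and divided by the library's total to CPM. Log2 ratios carry exact conditional binomial intervals, levels exact Poisson intervals and shares exact Clopper-Pearson intervals (Python 3, numpy, scipy, checked on simulated counts). The 3′ kit counts 1 tag per molecule, so no length correction was made.

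The 10 targets, the pathway and marker lists and the relatives were chosen with earlier results of these data known. All targets and relatives are named, with, from each pathway list, genes among the 2 largest rises and 2 largest falls past 10 CPM, and for each target at the floor the 2 genes most alike in pattern. Gates required 3 detected markers and a summed marker level (3 UMIs per 10000 for HSC, 4 for lymphoid-primed, monocyte, megakaryocyte, erythroid and Il7r Icos Gata3, 20 for mast or basophil and plasma cell, 80 for neutrophil granule), taken in a fixed order, with thresholds set after seeing the scores. A gate is a range of a score, not a type: within 20% of the cut lay 452 WT and 267 KO cells for HSC, 859 and 665 for lymphoid-primed, 179 and 425 for monocyte, and 208 and 559 for neutrophil granule. Cells left over were split at 10 UMIs per 10000 of S or G2/M genes. Other classes' genes were present in the gates: the HSC gate had a median of 9.60 (WT) and 13.3 (KO) neutrophil granule UMIs per 10000, and the monocyte gate 124 and 164. The erythroid (127 WT, 27 KO), Il7r Icos Gata3 (13 and 232) and plasma cell (36 and 0) gates had under 100 cells in a library and gave no gate values. Weighting to the same shares of the gates used each gate with at least 20 cells in each library. The erythroid gate thus entered it, and the Il7r Icos Gata3 and plasma cell gates were left out.

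Doublets were kept. Scrublet's automatic cut marked 0.0186% of WT and 0% of KO cells and did not work, so the 230 WT and 238 KO cells of highest score were removed as an alternative. Gene IDs were matched to GENCODE M21 (32158 of 32285). Twf1 and Rac1 overlap Irak4 and Daglb on the opposite strand. Wasl and Adcy9 overlap minor genes on the same strand, where reads could be split, and copies of these genes elsewhere in the genome were not examined. The alternatives tried were other scaling, cell cuts, weights, doublets, cell cycle, gates and thinning depth. Some entries of the pathway lists are not reported here.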

Additional observations from a re-analysis of the deposited data

Results flagged for a closer look

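Rock2 and Rac1 are listed because their ratios pointed in opposite directions in different cell groups, with each interval clear of 0. Rock2 had a log2 ratio, KO over WT, of 0.81 in the mast or basophil gate and -0.40 in the megakaryocyte gate. Rac1 had 0.17 in the megakaryocyte gate and -0.47 in the mast or basophil gate. The difference between gates was not tested, since each gate has 1 library per group.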

How the results depend on the processing

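No paired analysis was possible because each group had 1 library and the labels gave no replicate numbers. Cfl2, Wasl, Twf1, Itgav and Tgfbr1 were higher in KO under all 13 alternatives over all cells (8 planned, 5 chosen after seeing the data), from 1.29 to 2.08 on the log2 scale for Cfl2, 0.72 to 1.23 for Wasl, 0.73 to 0.92 for Twf1, 0.46 to 0.89 for Itgav and 0.35 to 1.503 for Tgfbr1. Rock2 (-0.24 to -0.03) and Adcy9 (-0.85 to -0.31) stayed below 0 in all 13. Il6st turned to 0.36 in cells outside the S and G2/M gates, 0.16 in cells of 8000 to 16000 UMIs and 0.10 in those of 16000 to 32000, Rac1 to -0.0060 in cells of 32000 UMIs or more, and Arntl to -0.13 in cells of 8000 to 16000 UMIs and -0.03 with each cell weighted the same; the cause was not tested. Under those 3 settings for Il6st, and with each cell weighted the same, 1 target in place of 2 was lower by 20% or more. With the libraries weighted to the same gate shares 0 were, with Adcy9 just short (log2 ratio -0.313), beside 6.84% of genes at the 10 CPM floor. The number higher by 25% or more was 5, or 6 outside the S and G2/M gates. The median log2 ratio of the targets, 0.65 over the 7 at the floor, was 0.74 outside the S and G2/M gates, 0.35 without the mast or basophil gate (chosen after seeing the data), 0.33 with no floor (10 targets) and 0.054 at a floor of 50 CPM (3 targets), where the set of targets itself changes. With gate thresholds doubled, 7 gates remained and the 5 higher targets were higher in 7 of 7, and without Hlf among the HSC markers they were higher in 8 of 8. Depth limits Adcy9 most, whose gates held as little as 1 UMI.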
